A study of Homo sapiens with 6 samples.

Results

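The B4GALT and B3GALT galactosyltransferases were examined in AGS, a cell line from a human gastric adenocarcinoma, which had been transfected for 48 h with si-control, a nontargeting siRNA, or with si-C1GALT1-3, an siRNA against C1GALT1. The 10 genes were chosen by name among the 22439 symbols with a probe, namely B4GALT1 to B4GALT7, B3GALT4, B3GALT5 and B3GALT6, and RefSeq accessions on the array gave them 12 of 58201 gene probes, with 2 probes each for B4GALT3 and B4GALT6. Each group had 3 samples of the same line, and each sample had a one-colour Agilent array to itself. The knockdown rests on a single siRNA, and nothing in the labels says that replicates came from separate cultures, so p-values measure only the spread between these samples. Arrays with the same replicate number shared a slide, with si-control in column 1 and si-C1GALT1-3 in column 2, so slide position and treatment cannot be told apart.

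C1GALT1 adds galactose to the first GalNAc of mucin-type O-glycans. The enzymes examined here add galactose elsewhere. B4GALT enzymes join it through a β1,4 bond to GlcNAc, glucose or xylose, and so build the N-acetyllactosamine (LacNAc) of N- and O-glycans, the lactosylceramide from which most complex glycosphingolipids derive, and the linker that carries glycosaminoglycans on proteoglycans. B3GALT enzymes use a β1,3 bond, in gangliosides, in type 1 chains that bear Lewis antigens of the gastrointestinal tract, and in the second galactose of the same linker. All of them work in the Golgi with UDP-galactose as donor.

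The scanner marked 66.2% to 72.7% of 60901 gene spots as well above background, depending on the array, and none as saturated. The centre of the si-control replicate 2 array had low signals, and the 9712 gene spots there were left out on that array. Of 58193 probes tested, 1538 (2.64%) passed the threshold used here, an unadjusted p under 0.01 and 2-fold, in limma, 961 higher (1.65%) and 577 lower in si-C1GALT1-3 cells, against 783 higher and 295 lower with no normalization between arrays. With the low centre kept the balance turned, to 474 higher and 706 lower, and without si-control replicate 1 it was 838 higher and 768 lower. At a Benjamini-Hochberg adjusted p under 0.05 there were 49 probes, and none was a galactosyltransferase of this group. The smallest adjusted p in limma was 0.0499, so all of them lay at the limit. With spots marked as outliers kept, no probe passed it. C1GALT1 (A_23_P252145) had a normalized log2 signal of 12.22, 13.03 and 12.62 in si-control replicates 1, 2 and 3, and 11.76, 11.98 and 11.13 in those of si-C1GALT1-3. All si-C1GALT1-3 arrays lay below all si-control arrays, and the log2 fold change of -1.0 (standard error 0.31, adjusted p = 0.265 in limma) missed the threshold. The epithelial markers KRT8, KRT18, KRT19 and EPCAM were well above background on all 6 arrays. So were the gastric markers TFF1 (means of 8.57 in si-control and 8.24 in si-C1GALT1-3 cells) and TFF2 (6.72 and 6.03). The gastric marker CLDN18 was not well above background on any of the 5 arrays that measured it. Of that marker list MUC1 and CDH17 passed upward, with log2 fold changes of 2.34 (standard error 0.44, adjusted p = 0.137 in limma) and 1.52 (standard error 0.39, adjusted p = 0.209). The log2 of the summed signals of the 8 unmasked genes was 18.68 to 19.32 in si-control and 18.43 to 19.20 in si-C1GALT1-3 cells. Most of that sum came from KRT8 and KRT18 (si-control means of 17.62 and 17.33), so it says little of MUC1 and CDH17. MUC1 passed under 16 and CDH17 under 11 of 19 alternatives. The call was lost for both without si-control replicate 1, without si-C1GALT1-3 replicate 1 and with Student's t-test, and for CDH17 also without si-control replicate 3, without si-C1GALT1-3 replicate 2 or 3, with the low centre kept and with the series table. Probes of leukocyte markers were above background too. The log2 of their summed signals was 13.66 to 14.38 in si-control and 13.61 to 13.77 in si-C1GALT1-3 cells, most of it from PTPRC. For the 3 unmasked stromal and endothelial markers the log2 of the summed signals was 8.54 to 10.05 and 9.81 to 10.60. COL1A1, PDGFRB and VWF had no value on si-control replicate 2 and are not in that sum. Their mean log2 signals were 10.30, 13.32 and 9.90 in si-control and 10.25, 12.52 and 8.88 in si-C1GALT1-3 cells. Of the 4 markers of that list well above background on all arrays that measured them, COL3A1 was higher and 3 were lower. No leukocyte or stromal marker passed the threshold, and the part of these markers in the results was not tested.

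After C1GALT1 knockdown, B4GALT5 fell 2.35-fold and was the only 1 of the 10 genes past the threshold, beside 0.992% of all probes that passed downward. In both groups 8 genes were well above background on all arrays that measured them, namely B4GALT1, B4GALT2, B4GALT3, B4GALT4, B4GALT5, B4GALT7, B3GALT4 and B3GALT6. Detected here means well above background on every array of one group or of both, and of 38654 detected probes 3.14% passed in either direction and 1.19% downward. Of the 8 genes, 6 had a positive and 2 a negative log2 fold change, beside 49.6% of detected probes with a positive one. Their median was 0.35, against -0.0041 over all detected probes. None of the other 7 differed by 2-fold. B4GALT6 and B3GALT5 were near background.

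**Figure D1:**
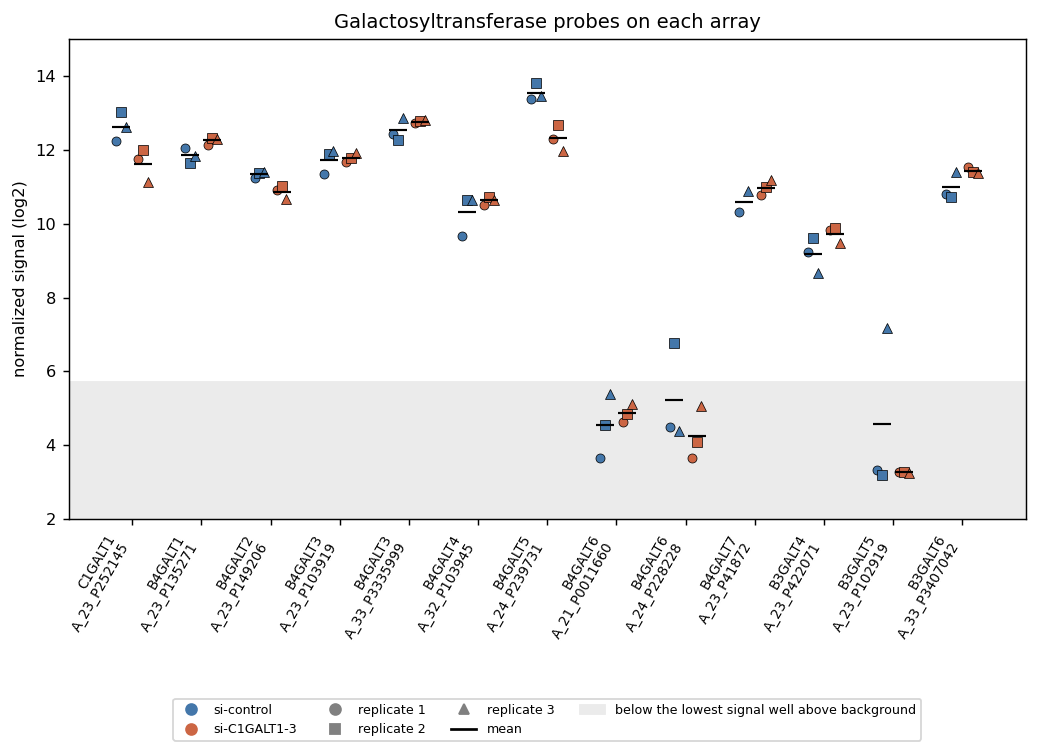
Normalized log2 signal of C1GALT1 and of the 12 galactosyltransferase probes on each array, with si-control in blue, si-C1GALT1-3 in orange, a marker shape per replicate and a line at each group mean. B4GALT5 is the probe whose 3 si-C1GALT1-3 arrays (11.95 to 12.68) lie well below the si-control arrays (13.38 to 13.80), and the B4GALT6 and B3GALT5 probes lie mostly in the grey area, which ends at 5.71, the highest among the 6 arrays of the lowest signal well above background.

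B4GALT5 is the main lactosylceramide synthase outside the nervous system and adds galactose to glucosylceramide. Its probe (A_24_P239731) had a normalized log2 signal of 13.38, 13.80 and 13.45 in si-control replicates 1, 2 and 3. In si-C1GALT1-3 cells it had 12.30, 12.68 and 11.95. The groups did not overlap and were 0.70 apart on the log2 scale. Before normalization between arrays the processed signals were 13597, 13214 and 9035 in si-control and 5833, 7310 and 3367 in si-C1GALT1-3 cells, and did not overlap either. The log2 fold change was -1.23 (standard error 0.24, 95% interval -1.82 to -0.65, adjusted p = 0.137 in limma), past an unadjusted p under 0.01 and 2-fold. In bulk RNA, fewer cells with the transcript and less transcript per cell cannot be told apart.

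The fall of B4GALT5 was seen within every slide, where si-C1GALT1-3 differed from si-control by -1.09, -1.12 and -1.49 on slides 1, 2 and 3. The call was lost without si-C1GALT1-3 replicate 1 (log2 fold change -1.23, standard error 0.29) and with no normalization between arrays (-1.17, standard error 0.39). Within each array, the log2 signal of B4GALT5 was also set against that of each of the other 7 detected genes, a comparison chosen after the values were seen. For all 7, the difference was lower on every si-C1GALT1-3 array than on every si-control array that measured the pair. B4GALT7 had no value on si-control replicate 2. The average drop ran from 0.82 for B4GALT2 to 1.84 for B3GALT4. The same separation held against 79.9% of all other probes well above background on all arrays, so it is not particular to these 7 genes.

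**Figure D2:**
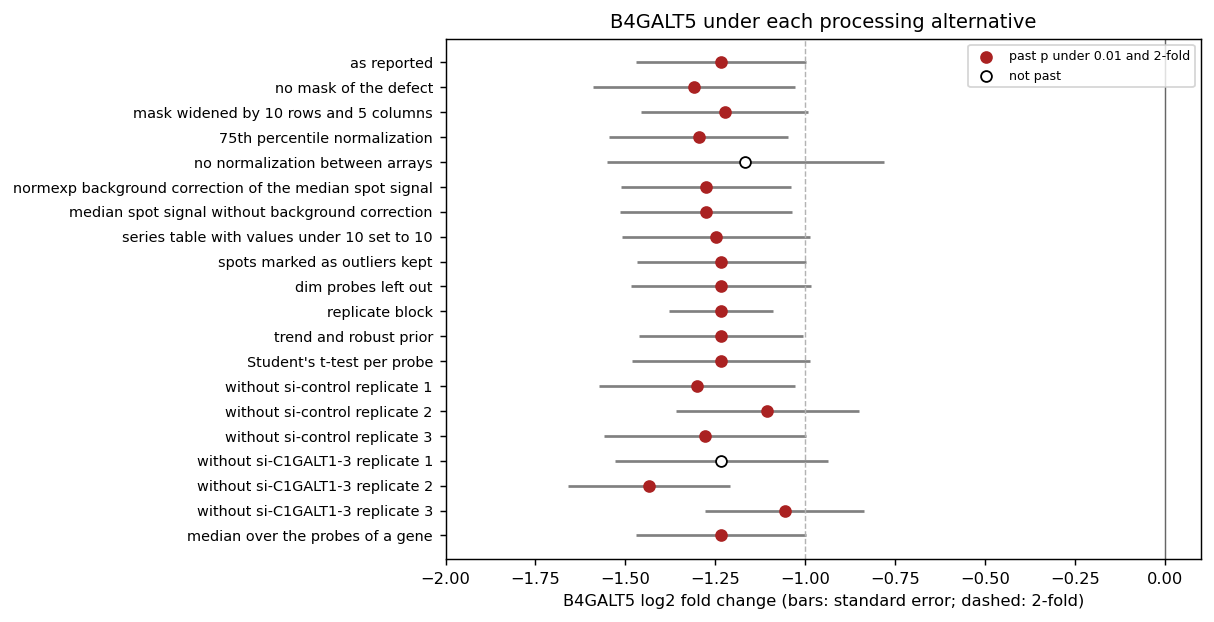
Log2 fold change of B4GALT5 (horizontal axis, with standard errors) as reported and under each processing alternative (vertical axis). All 20 values lie between -1.43 and -1.06, and the 2 open points, without si-C1GALT1-3 replicate 1 and with no normalization between arrays, did not pass p under 0.01.

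The genes whose signals followed that of B4GALT5 most closely over the 6 arrays, each taken relative to its own mean, were FAR1, POLR3G and ZNF92 among 18646 named probes well above background on all arrays. Their root mean square difference from B4GALT5 was 0.038, 0.040 and 0.055 on the log2 scale. FAR1 encodes a fatty acyl-CoA reductase of ether lipid synthesis, POLR3G a subunit of RNA polymerase III and ZNF92 a zinc finger protein.

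The other lactosylceramide synthase, B4GALT6, is best known from brain. Its brighter probe (A_24_P228228) had 4.50, 6.77 and 4.39 in si-control and 3.65, 4.08 and 5.05 in si-C1GALT1-3 cells. It was well above background on si-control array 2 and on no other array. Its second probe (A_21_P0011660) reached that level on no array, with 3.67 to 5.40 in si-control and 4.63 to 5.11 in si-C1GALT1-3 cells. The fitted log2 fold changes of the probes, -0.96 (standard error 0.74) and 0.32 (standard error 0.45), thus rest on signals near background.

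B3GNT5, which also acts in glycolipid synthesis, fell as well. It was placed in the list of LacNAc chain partners and not in that of glycosphingolipid enzymes. B3GNT5 adds GlcNAc to lactosylceramide and so opens the lacto- and neolacto-series. Its probe (A_23_P18372) had 11.59, 11.94 and 11.48 in si-control and 9.86, 9.99 and 9.27 in si-C1GALT1-3 cells, with no overlap. It fell by 1.96 on the log2 scale (standard error 0.25, adjusted p = 0.084 in limma), and it passed p under 0.01 and 2-fold under all 19 alternatives. The list of glycosphingolipid enzymes, by contrast, had 8 of 10 genes detected, of which 4 were higher and 4 lower, and none passed. UGCG, which makes the glucosylceramide that B4GALT5 uses, had a log2 fold change of -0.25 (95% interval -0.88 to 0.37). The largest positive value was that of ST3GAL5, which sialylates lactosylceramide to ganglioside GM3, with 1.38 (standard error 0.41, adjusted p = 0.254 in limma). All si-C1GALT1-3 arrays but only 1 si-control array had ST3GAL5 well above background. It was 0.56 with normexp, 0.58 with the median spot signal without background correction and 0.95 without si-control replicate 1. It passed the threshold with dim probes left out and, at 1.75, without si-control replicate 2. The largest negative value was that of B3GALNT1, the globoside synthase, with -0.45 (standard error 0.13, adjusted p = 0.233).

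The 250 bases before the RefSeq start of B4GALT5 and B3GNT5 (build GRCh38.p14) are shown because these are the galactosyltransferase past the threshold and the enzyme past it that extends its product. Capitals mark GC boxes, searched as GGGCGG and its reverse complement CCGCCC, where overlapping matches were counted. At least 1 GC box occurs in 42.6% and at least 3 in 13.9% of all 35116 RefSeq windows of that length.
B4GALT5, chr20:49713879-49714128, minus strand: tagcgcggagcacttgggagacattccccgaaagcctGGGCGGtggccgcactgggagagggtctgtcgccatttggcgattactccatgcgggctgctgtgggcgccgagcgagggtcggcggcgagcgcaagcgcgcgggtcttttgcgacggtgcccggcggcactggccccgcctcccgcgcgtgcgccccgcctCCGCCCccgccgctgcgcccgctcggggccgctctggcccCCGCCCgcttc
B3GNT5, chr3:183253003-183253252, plus strand: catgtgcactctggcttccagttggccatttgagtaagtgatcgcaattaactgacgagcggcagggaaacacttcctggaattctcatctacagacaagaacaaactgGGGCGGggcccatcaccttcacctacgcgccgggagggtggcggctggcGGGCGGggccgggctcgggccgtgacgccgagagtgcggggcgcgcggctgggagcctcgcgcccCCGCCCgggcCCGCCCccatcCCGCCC
The window of B4GALT5 holds 3 GC boxes and 75.6% G and C, and that of B3GNT5 holds 5 and 68.0%, against a median of 58.0% G and C over all windows. The arrays do not measure binding at these sequences.

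Among the enzymes that add galactose to N-glycan antennae and LacNAc chains are B4GALT1 to B4GALT4. B4GALT1, the main galactosyltransferase of N-glycans and the catalytic part of lactose synthase, had 12.06, 11.65 and 11.83 in si-control and 12.13, 12.32 and 12.30 in si-C1GALT1-3 cells. The groups did not overlap, but the gap between them was 0.074. Its log2 fold change was 0.40 (standard error 0.16, 95% interval 0.011 to 0.80, adjusted p = 0.352 in limma), so the interval only just leaves out 0. With no normalization between arrays it was 0.52, with a standard error of 0.35. With the 75th percentile it was 0.39, with a standard error of 0.22 (unadjusted p = 0.116 in limma).

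B4GALT2, a close relative that also acts on N-glycans, went the other way. Its signals were 11.24, 11.37 and 11.39 in si-control and 10.90, 11.02 and 10.67 in si-C1GALT1-3 cells, again without overlap. The log2 fold change was -0.47 (standard error 0.15, 95% interval -0.83 to -0.10, adjusted p = 0.272 in limma), and was negative within every slide. With no normalization between arrays it was -0.35, with a standard error of 0.35. Among the 8 detected genes, B4GALT1 was thus the only 1 that lay wholly above si-control after normalization, beside 13.8% of detected probes. B4GALT2 and B4GALT5 were the 2 that lay wholly below, beside 12.4%. Before normalization between arrays the groups overlapped for B4GALT1 and B4GALT2. Processed signals of B4GALT1 were then 2846 to 5153 in si-control and 4277 to 5778 in si-C1GALT1-3 cells. Those of B4GALT2 were 2078 to 2945 and 1358 to 2415.

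B4GALT3, which also acts on N-glycan antennae, has 2 probes on the array, and neither moved past the threshold. The brighter one (A_33_P3335999) had 12.43, 12.27 and 12.86 in si-control and 12.71, 12.76 and 12.81 in si-C1GALT1-3 cells, for a log2 fold change of 0.24 (95% interval -0.23 to 0.70). The other (A_23_P103919) had 0.041 (95% interval -0.47 to 0.55). Both intervals lie within 2-fold.

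B4GALT4, which prefers sulfated GlcNAc and acts in keratan sulfate synthesis, had 9.67, 10.63 and 10.63 in si-control and 10.51, 10.72 and 10.65 in si-C1GALT1-3 cells. The groups overlapped. The log2 fold change of 0.31 (standard error 0.29, adjusted p = 0.694 in limma) rested on the low si-control replicate 1 and was -0.0053 without it.

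**Figure D3:**
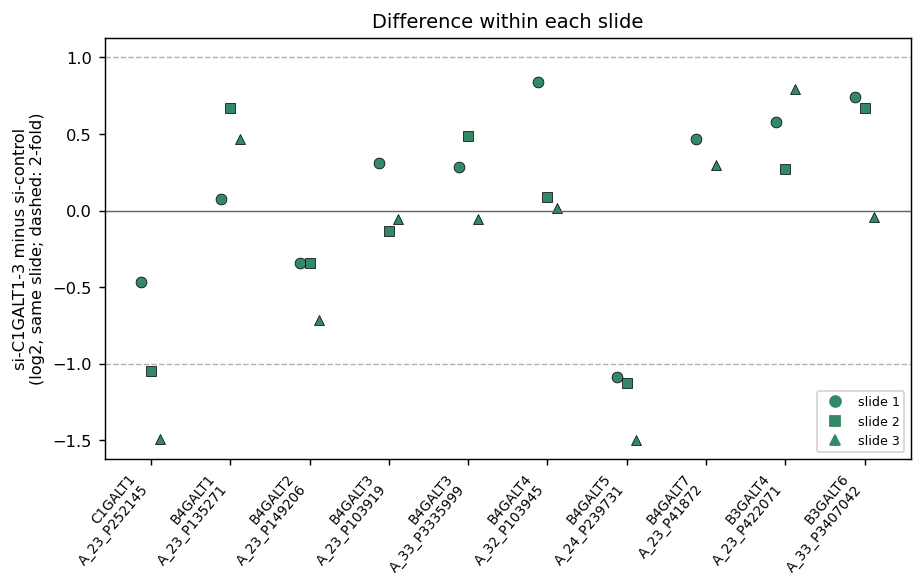
Difference in normalized log2 signal between the si-C1GALT1-3 and the si-control array of the same slide (vertical axis), for C1GALT1 and the 9 well-detected galactosyltransferase probes (horizontal axis), with a marker shape per slide. B4GALT5 is below the 2-fold line on all 3 slides (-1.09 to -1.49), B4GALT2 is below 0 on all 3 and B4GALT1 above 0 on all 3, and B4GALT7 has no value on slide 2.

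In the linker of glycosaminoglycans, B4GALT7 adds the first galactose to xylose and B3GALT6 the next. The B4GALT7 spot lies in the low centre of the si-control replicate 2 array, so the fit dropped that array for it. Its signals were 10.31 and 10.88 in si-control replicates 1 and 3 and 10.78, 10.98 and 11.18 in si-C1GALT1-3 cells, with overlap. The log2 fold change was 0.38 (standard error 0.25, 95% interval -0.27 to 1.04, adjusted p = 0.575 in limma). With that spot kept, at a processed log2 signal of 3.11, the log2 fold change would be 2.82, and without si-control replicate 1 it was 0.099.

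B3GALT6 had 10.79, 10.73 and 11.41 in si-control and 11.53, 11.40 and 11.36 in si-C1GALT1-3 cells. The groups overlapped through si-control replicate 3. The log2 fold change was 0.46 (standard error 0.22, 95% interval -0.084 to 0.99, adjusted p = 0.432 in limma).

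Of the 12 other linker genes all had a probe and 11 were detected, 5 higher and 6 lower, and FAM20B alone passed. FAM20B is the kinase that phosphorylates the linker xylose. It had 12.37, 12.70 and 12.48 in si-control and 11.56, 11.85 and 11.11 in si-C1GALT1-3 cells, a log2 difference of -1.01 (standard error 0.23, adjusted p = 0.170 in limma). It lies close to the 2-fold limit and passed under 9 of 19 alternatives. The call was lost without any one of the 3 si-control arrays, without si-C1GALT1-3 replicate 1 or 3 (-0.81 without the latter), with no normalization between arrays, with a wider mask, with both settings that use the median spot signal and with Student's t-test.

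B3GALT4 builds gangliosides of the GM1 type. Its signals were 9.24, 9.60 and 8.67 in si-control and 9.82, 9.87 and 9.46 in si-C1GALT1-3 cells. Its log2 fold change of 0.55 (standard error 0.27, 95% interval -0.13 to 1.23, adjusted p = 0.453 in limma) was the largest positive one among the detected galactosyltransferases of this group. Without si-control replicate 3 it was 0.30, below B3GALT6 at 0.67, B4GALT7 at 0.66, B4GALT4, B4GALT3 and B4GALT1. The value of B4GALT7 then rested on si-control replicate 1 alone. The groups overlapped for B3GALT4, although its difference was positive on all 3 slides, from 0.27 to 0.79.

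B3GALT5 makes type 1 chains, the precursors of Lewis a and sialyl Lewis a. Its probe (A_23_P102919) had 3.32, 3.20 and 7.18 in si-control and 3.27, 3.29 and 3.25 in si-C1GALT1-3 cells. It was well above background only on si-control array 3. The fit gave a log2 fold change of -1.30 (standard error 1.1), which rests on signals near background and was 0.0051 without that array. Of the related genes outside the group, B3GALT1 was well above background on 2 arrays of each group, with 5.86 and 5.77 as group means, and B3GALT2 on none.

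**Figure D4:**
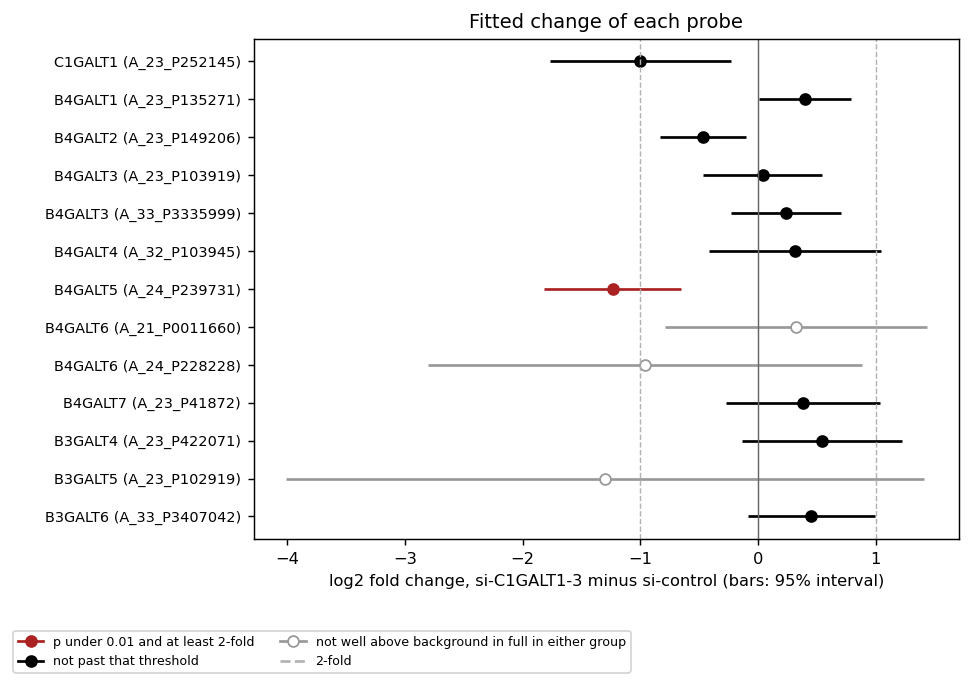
Fitted log2 fold change of each probe with its 95% interval (horizontal axis), si-C1GALT1-3 minus si-control, for C1GALT1 and the 12 galactosyltransferase probes. B4GALT5 (-1.23) passed p under 0.01 and 2-fold, the other detected galactosyltransferases range from -0.47 to 0.55, and the open grey points of B4GALT6 and B3GALT5 were not well above background on all arrays of either group.

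The genes that supply and support these enzymes were read from 7 lists, in which 70 of 74 genes other than C1GALT1 had a named probe and 61 were detected. One passed upward and 2 downward (B3GNT5 and FAM20B), beside 3.14% of detected probes that passed in either direction and 1.19% downward. Of the 61 detected genes 39 were higher and 22 lower, beside 49.6% of detected probes with a positive log2 fold change. A gene detected in only a single group tends to be higher in that group. MGAT3, ST3GAL5, GCNT2 and CSGALNACT1 were detected only through si-C1GALT1-3, and all were higher. B3GNT6 was detected only through si-control, and it was lower. The part of this filter in the balance was not tested. The median log2 fold change of the detected genes was 0.084. All 9 genes of UDP-galactose supply were detected, 8 higher and 1 lower, and none passed. GALT, which transfers UMP to galactose-1-phosphate, had the largest positive log2 fold change there, 0.63 (standard error 0.20, adjusted p = 0.278 in limma). TMEM165, a Golgi protein of manganese balance on which galactosylation depends, had 11.49, 11.82 and 12.06 in si-control and 10.79, 10.90 and 11.12 in si-C1GALT1-3 cells. These groups did not overlap, and the log2 fold change of -0.86 (standard error 0.20, adjusted p = 0.175 in limma) passed an unadjusted p under 0.01 but was short of 2-fold. Without si-control replicate 1 it was -1.01 and passed.

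Of the 12 partners in LacNAc chains, 11 had a probe and 9 were detected, 6 of them higher and 3 lower, and B3GNT5 alone passed. Among 10 genes that build N-glycan acceptors, all were detected, 7 higher and 3 lower. MGAT3, which adds the bisecting GlcNAc, passed upward. Its signals were 3.33, 5.55 and 4.09 in si-control and 7.05, 7.29 and 8.09 in si-C1GALT1-3 cells, and only 1 si-control array had it well above background, so the fitted log2 fold change of 3.15 (standard error 0.62, adjusted p = 0.141 in limma) depends on signals near background. It was 1.29 at its lowest over the alternatives, and the call was lost without si-control replicate 3, without si-C1GALT1-3 replicate 3, with Student's t-test and with the low centre of si-control replicate 2 kept.

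Of the other β3 enzymes, 8 had a probe and 4 were detected, and none passed. The chaperone C1GALT1C1 had the largest positive log2 fold change there, 0.27 (95% interval -0.16 to 0.69), and C1GALT1 itself the largest negative one. In the list of Golgi trafficking 11 genes were detected, 7 higher and 4 lower, and none passed. COG2 of the conserved oligomeric Golgi complex had the largest positive value, 0.56 (standard error 0.16, adjusted p = 0.226 in limma). COG8 had the largest negative value, -0.17 (standard error 0.27), which turned to 0.11 without si-control replicate 1.

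**Figure D5:**
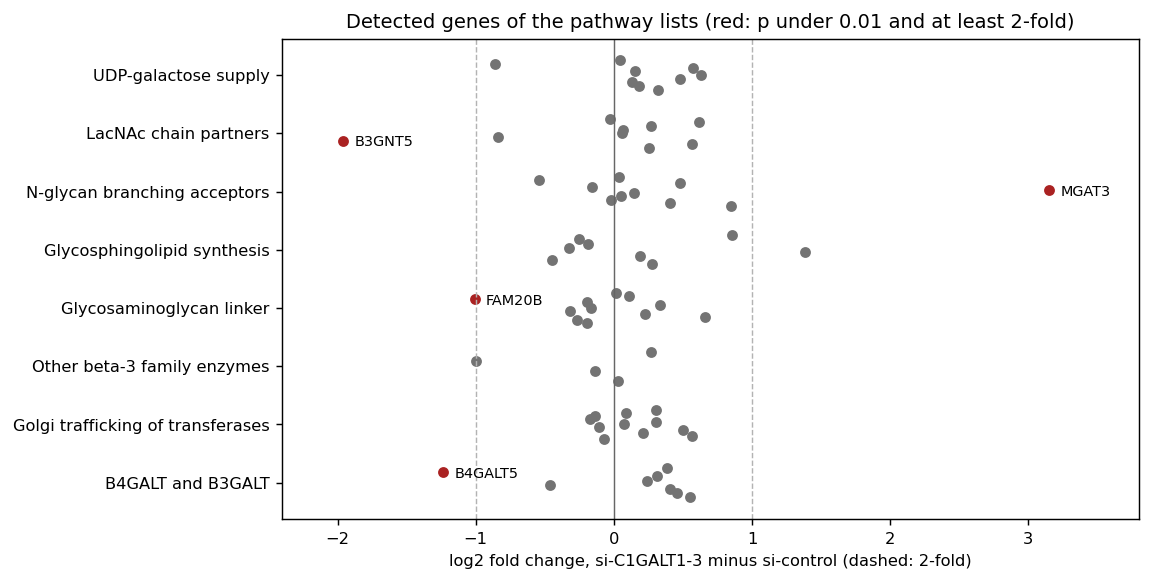
Log2 fold change (horizontal axis) of every detected gene in the 7 lists and of the 8 detected galactosyltransferases (vertical axis), 1 point per gene. Red points passed p under 0.01 and 2-fold, namely B3GNT5 (-1.96), B4GALT5 (-1.23) and FAM20B (-1.01) downward and MGAT3 (3.15) upward, and the other points lie between -1.0 and 1.38.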

How the data were processed

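The authors deposited the output of Agilent Feature Extraction 10.5.1.1 for each array, which gives an intensity for every spot. Its processed intensity has the background subtracted and spatial trends of that array removed, with no step between arrays. The deposited series table repeats the intensity after background subtraction. The array design names build hg19.

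Log2 processed signals of gene spots were used. Between 100 and 424 spots per array marked as non-uniform or population outliers were set to missing, as was the low centre of si-control replicate 2. Arrays were quantile normalized, spots of a probe averaged, and groups compared with limma 3.58.1 (lmFit, eBayes) in R 4.3.3 without a filter on dim probes, with Benjamini-Hochberg adjustment over all probes. The test was checked on simulated arrays with independent noise, a check that does not cover the normalization or a shared slide. RefSeq accessions (GRCh38.p14 table) gave 1 symbol to 31104 probes and none to 27097. A gene is given by its brightest probe. Precision is limited by the number of arrays.

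The members, lists and mask were chosen with earlier results of these data known. Named genes were all members, C1GALT1, list genes past p under 0.01 and 2-fold or else the largest rise and fall among detected genes, and the 3 genes nearest to a member past the threshold. UGCG, B3GALT1, B3GALT2, GCNT2, CSGALNACT1, B3GNT6 and the markers were named after their values were seen. Deviations from the group means correlated by 0.20, 0.21 and 0.33 between arrays of slides 1, 2 and 3. Correlations between unlike replicate numbers were not computed, and a shared slide and paired samples cannot be told apart. The reported fit has no term for the slide. Alternatives were the mask, normalization, background correction, the series table, marked spots, dim probes, a block, the prior, Student's t-test per probe, probe choice and leaving out each array. They were run for list genes after seeing the data. Normexp used the median spot signal with an offset of 50.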

Additional observations from a re-analysis of the deposited data

How the results depend on the processing

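The members' log2 fold changes kept their direction and their side of the threshold in 184 alternative fits, with 4 exceptions. B4GALT4 turned to -0.0053 without si-control replicate 1 (-0.0053 to 0.48 with each array left out) and B3GALT5 to 0.0051 without si-control replicate 3 (-1.97 to 0.0051). B4GALT5 no longer passed with no normalization between arrays, where the number of members past the threshold was 0, or without si-C1GALT1-3 replicate 1. With each array left out that number was 0 to 1. For C1GALT1 the log2 fold change was -1.20 to -0.75 with each array left out, and with dim probes left out it passed p under 0.01 at -1.0. With the replicate as a block B4GALT5 had -1.23 (standard error 0.14) and C1GALT1 -1.0, and the block changed no call among the members or the 12 list and marker genes run with it. Over all probes, 896 passed with Student's t-test, 915 with normexp and 945 with the median spot signal without background correction, against 1538 as reported, and 1126 to 1781 with each array left out. The count at an adjusted p under 0.05, 49 as reported, ranged from 0 to 545, the highest with dim probes left out. The 75th percentile moved the median log2 fold change of all probes to -0.11, relative to which B4GALT5 had -1.19 and B3GNT5 -1.86. COG8 turned to 0.11 without si-control replicate 1 (-0.35 to 0.11 with each array left out) and to 0.096 as the median over its probes. The cause of these changes was not tested. Dim signal limits what can be said of B4GALT6 and B3GALT5.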
